A study of Rattus norvegicus with 8 samples.

Results

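The genes described here are 9 negative regulators of mitogen-activated protein (MAP) kinase signalling: the dual-specificity phosphatases Dusp1, Dusp4, Dusp5, Dusp6 and Dusp14, the Sprouty genes Spry2 and Spry4, and the Sprouty-related genes Spred1 and Spred2. They were picked by symbol from the 28909 gene symbols of the count table, and all 9 were found. Their RNA was measured in primary hippocampal neurons of Sprague-Dawley rats, prepared from embryos and grown on porous filter inserts, so that somata stay on the upper side while axons and dendrites grow through to the lower side. Cultures received picrotoxin (PTX), an antagonist of GABA-A receptors, for 48 h or vehicle (ethanol) as control, and were lysed after 20 days in vitro. The 4 groups are control somata, PTX somata, control processes and PTX processes, each with 2 ribosome-depleted total RNA libraries. The labels number the libraries 1 and 2 but do not say whether the numbers mark separate preparations, so the p-values measure the spread between these libraries, which may be technical. The lower side of an insert pools axons and dendrites, and these are bulk samples, in which a change in the number of cells cannot be told apart from a change of RNA per cell.

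The libraries held between 12290890 and 18455662 counts, of which non-mitochondrial genes received 9517542 to 11227599 in somata and 4702054 to 5491237 in processes. A median tested gene therefore had 268 to 319 reads in a somata library and 96 to 110 in a process library. All 8 neuronal marker genes on the list used here were detected, but so were all 8 astrocyte markers, whose summed level was 3679 to 4106 CPM in control somata and 12740 to 14296 CPM in control processes. Levels are CPM (counts per 1e6 counts) after TMM scaling, a scaling that sets the typical gene equal between libraries. Of the microglial and endothelial markers, Itgam and Pecam1 were not in the count table, and none of the others passed the filter on low counts. Cldn5 in all 4 groups and Cx3cr1 in both process groups were at 0, as was Tmem119 in control processes. The filter asked for over 20 reads in 2 or more libraries. All 9 feedback genes passed it, as 14309 genes did in all, although Dusp14 had only 4 to 10 reads per library in processes and passed through its somatic counts.

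Neurotrophin, growth factor and calcium signals reach the kinases ERK1 and ERK2 through Ras, Raf and MEK, and ERK activity in turn switches on genes whose products shut the pathway down. Dual-specificity phosphatases remove the activating phosphates of MAP kinases: Dusp1, Dusp4 and Dusp5 act in the nucleus, Dusp6 acts on ERK in the cytoplasm, and Dusp14 is a small atypical member of the family. Sprouty and Spred proteins act further upstream, between receptor and Raf, and Spred1 recruits the Ras inactivator neurofibromin to the membrane. In neurons, several of these genes are known as activity-induced genes.

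Promoter sequence of 250 bases before to 50 bases after the transcription start was taken from RefSeq (assembly GRCr8) for 8 of the 9 genes (all but Dusp4), with 3 start sites for Dusp14 and 2 for Spry2. It was searched on both strands for elements through which neuronal activity is known to act. The full cAMP response element TGACGTCA, bound by CREB, was found in Dusp1 alone among the 8, against 1.83% of all 33469 promoters. The CArG box, the core of the serum response element, was found in Dusp5 alone, at 2 directly adjoining places, against 1.64% of all promoters with at least 1. These 2 elements had the lowest shares of all promoters among those searched, and their sequences are shown. The AP-1 element given below was also found in 1 of the 8 genes, and its sequence is not shown. The elements are in capitals, on the plus strand at chr10:17184718-17184747 for Dusp1 and chr1:262543687-262543716 for Dusp5.
Dusp1: ggcagggcgggTGACGTCAccacccggtca
Dusp5: aacacCCATATTTGGCCTTATATGGgcact
The element core TGACG, which lies inside the full cAMP response element, was found in Dusp1, Dusp5, Dusp14, Spry2 and Spred2 and in 21.2% of all promoters. It matched at 1 of the 3 start sites of Dusp14 and 1 of the 2 of Spry2. The shares of all promoters count each start site separately. The Egr element GCGNGGGCG was found in Dusp5 and Spry2 (4.98% of all promoters) and the AP-1 element TGANTCA in Dusp14 (7.33%). In the windows of Dusp6, Spry4 and Spred1 these letters were not found.

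After 48 h of PTX, Dusp1, Dusp4, Dusp6, Spry2 and Spry4 rose in somata, and Dusp1, Dusp4, Dusp6 and Spry4 rose in processes. In somata, 5 of the 9 genes passed an adjusted p-value of 0.05 in edgeR's quasi-likelihood test with Benjamini-Hochberg adjustment, all 5 with higher levels, where 2.09% of the 14309 tested genes were called higher. In processes 4 of the 9 were called, all with higher levels, against 1.64% of tested genes. The median log2 fold change of the 9 genes was 0.70 in somata and 0.55 in processes, beside -0.01 for all tested genes in both compartments. The PTX and control libraries did not overlap, with PTX higher, for 8 of the 9 genes in somata and 7 in processes, against 24% and 20.1% of all tested genes. The genes were chosen with earlier results of these data known, so these counts describe the genes and are no independent evidence of their direction.

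Dusp4, a nuclear phosphatase of ERK and JNK, was measured at 47.5 and 38.4 CPM in the control somata libraries and at 119.9 and 100.6 CPM in the PTX somata libraries. In processes the levels were 30.0 and 25.0 CPM in control and 65.6 and 58.1 CPM after PTX. Every PTX library thus lay far above both control libraries of its compartment. The rise was 2.57-fold in somata (log2 fold change 1.36, standard error 0.143, adjusted p = 0.000789, quasi-likelihood test) and 2.25-fold in processes (log2 fold change 1.17, standard error 0.156, adjusted p = 0.00414). By p-value, Dusp4 ranked 28 of 14309 genes in somata and 51 in processes.

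Dusp1, the founding MAP kinase phosphatase and itself an immediate early gene, was measured at 9.99 and 6.70 CPM in control somata and 26.0 and 20.2 CPM in PTX somata. In control processes it was near the detection limit, with 20 and 9 reads (2.23 and 1.06 CPM), and it had 60 and 73 reads (6.89 and 7.34 CPM) after PTX. The groups did not overlap in either compartment, and the size of the rise in processes rests on these few control reads. The fold changes were 2.78 in somata (log2 1.47, standard error 0.216, adjusted p = 0.00474, quasi-likelihood test) and 4.29 in processes (log2 2.10, standard error 0.364, adjusted p = 0.0126). In fits that drop 1 library, the log2 fold change in processes lay between 1.67 and 2.74. Its adjusted p was then between 0.0516 and 0.074 when a process library was the one left out, and 0.0583 in somata without replicate 2 of control somata.

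Dusp6, the cytoplasmic ERK phosphatase, had closely matching replicates in all 4 groups. Its levels were 26.2 and 26.7 CPM in control somata, 43.3 and 43.5 CPM in PTX somata, 14.4 and 14.9 CPM in control processes and 21.8 and 22.6 CPM in PTX processes. The rise was 1.64-fold in somata (log2 0.71, standard error 0.101, adjusted p = 0.00391) and 1.52-fold in processes (log2 0.60, standard error 0.12, adjusted p = 0.0225). The call in processes was lost when only the 4 process libraries were fitted (adjusted p = 0.0848) and when any 1 of them was left out (0.0582 to 0.129), while the log2 fold change then stayed between 0.57 and 0.63. In somata it was lost without replicate 2 of control somata (adjusted p = 0.0571).

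Dusp5, a nuclear phosphatase selective for ERK, was measured at 7.18 and 6.03 CPM in control somata and at 8.92 and 9.23 CPM in PTX somata. In processes it had only 19 to 39 reads per library, with 2.12 and 2.47 CPM in control and 2.76 and 3.92 CPM after PTX. All PTX libraries were above the control libraries of their compartment, but neither difference passed the test. The log2 fold change was 0.46 in somata (adjusted p = 0.225, 95% interval 0.07 to 0.85) and 0.55 in processes (adjusted p = 0.36, 95% interval -0.06 to 1.17). In the fit with a replicate block the adjusted p was 0.047 in somata and 0.29 in processes.

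Dusp14 was the single gene of the 9 with a negative log2 fold change in both compartments. It was measured at 1.91 and 2.15 CPM in control somata and 1.76 and 1.78 CPM in PTX somata. At 4 to 10 reads per process library a difference was not detectable there, and the log2 fold changes of -0.20 in somata (adjusted p = 0.833) and -0.59 in processes (adjusted p = 0.63) had 95% intervals of -0.82 to 0.42 and -1.67 to 0.49.

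Of the Sprouty genes, whose products restrain receptor tyrosine kinase signalling to Ras and Raf, Spry4 had the larger fold changes. It was measured at 28.8 and 23.9 CPM in control somata and 63.5 and 60.8 CPM in PTX somata, and at 23.1 and 21.3 CPM in control processes and 40.0 and 46.4 CPM in PTX processes. The rise was 2.36-fold in somata (log2 1.24, standard error 0.125, adjusted p = 0.000588, quasi-likelihood test) and 1.95-fold in processes (log2 0.96, standard error 0.138, adjusted p = 0.00514). Spry4 and Dusp4 were the 2 genes whose PTX calls in both compartments held with each of the 8 libraries left out in turn, with adjusted p-values up to 0.0448 for Spry4 and 0.0324 for Dusp4. Spry4 ranked 24 of 14309 genes by p-value in somata and 76 in processes.

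Spry2 was measured at 31.2 and 34.4 CPM in control somata and 49.9 and 56.8 CPM in PTX somata. Its levels in processes were 35.6 and 37.5 CPM in control and 45.8 and 52.4 CPM with PTX. The groups did not overlap in either compartment, but the step was smaller in processes and passed the test in somata only. The somatic log2 fold change was 0.70 (standard error 0.117, adjusted p = 0.00895), and that in processes was 0.43 (standard error 0.125, adjusted p = 0.0982, and 0.00674 in the fit with a replicate block). The somatic call was lost without replicate 1 or 2 of control somata or without replicate 2 of PTX somata, with adjusted p-values of 0.0603 to 0.0891.

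The Spred genes did not pass in either compartment. Spred1 was measured at 52.6 and 49.8 CPM in control somata and 52.7 and 53.0 CPM in PTX somata, and at 116 and 107 CPM in control processes and 132.1 and 119.8 CPM in PTX processes. Its 95% intervals, -0.18 to 0.28 on the log2 scale in somata and -0.06 to 0.41 in processes, lay below those of Dusp4 (from 1.04 in somata and 0.82 in processes) and Spry4 (from 0.97 and 0.66), although the difference between genes was not tested. Spred2 was measured at 12.9 and 11.1 CPM in control somata and 14.8 and 15.8 CPM in PTX somata, a log2 fold change of 0.35 (adjusted p = 0.429). In processes the 2 PTX libraries, with 13.8 and 22.2 CPM, enclosed the control libraries with 18.5 and 16.3 CPM, and its log2 fold change of 0.05 turned to -0.34 without replicate 2 of PTX processes and to -0.03 without replicate 2 of control processes.

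**Figure D1:**
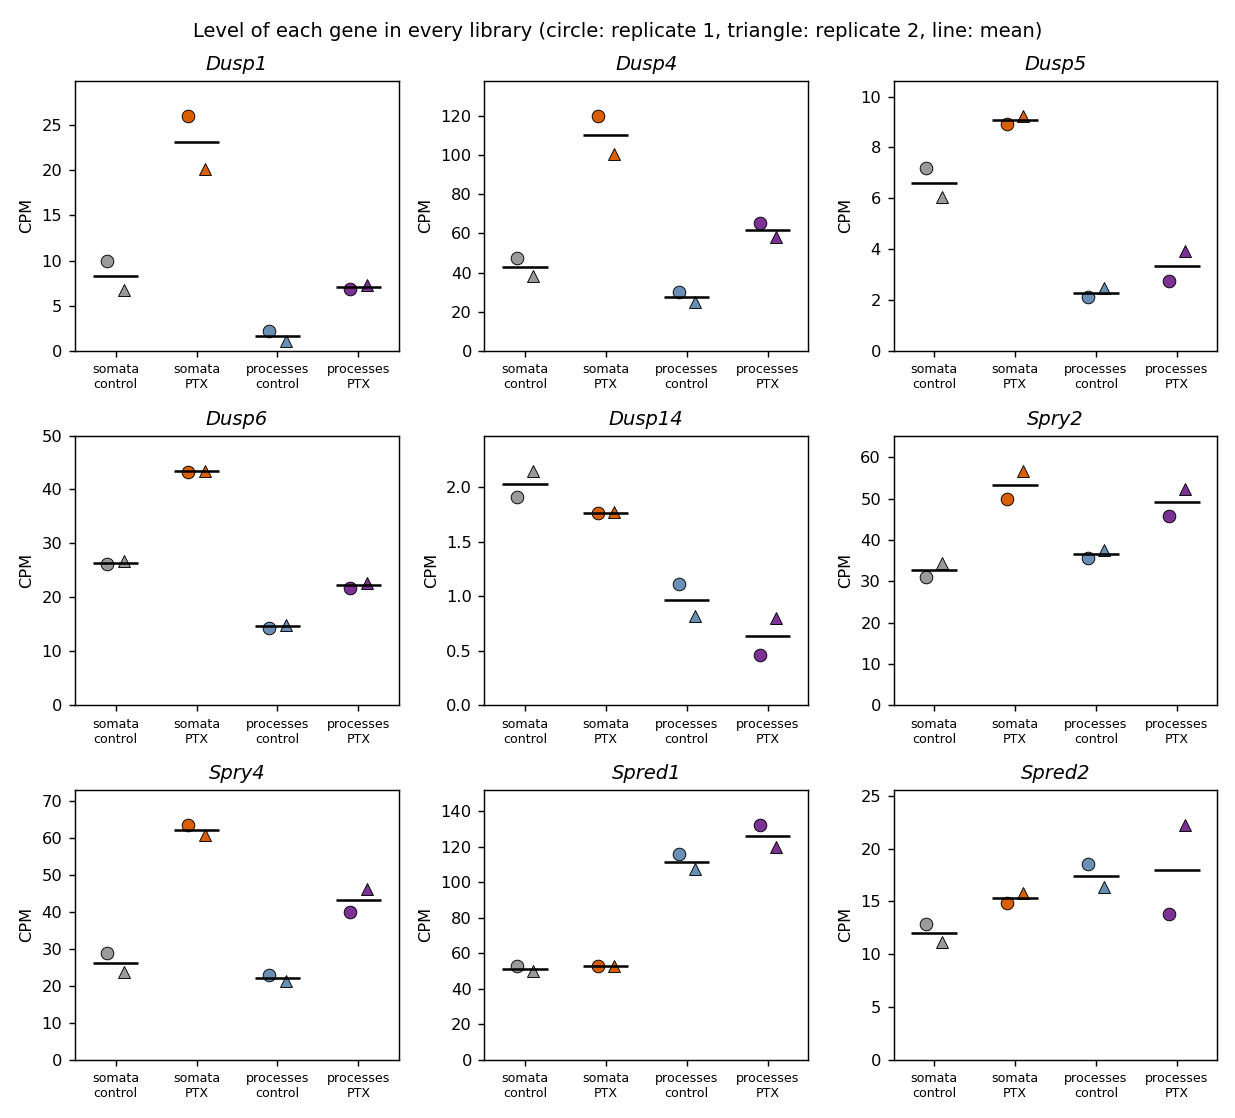
Level of each of the 9 genes in CPM (vertical axis, from 0, scaled per gene) in the 4 groups, with a circle for replicate 1, a triangle for replicate 2 and a line at the mean. Dusp1, Dusp4, Dusp6, Spry2 and Spry4 lie higher with PTX in both compartments, Spred1 is higher in processes in both treatments, and the 2 libraries of Spred2 in PTX processes stand at 13.8 and 22.2 CPM.

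**Figure D2:**
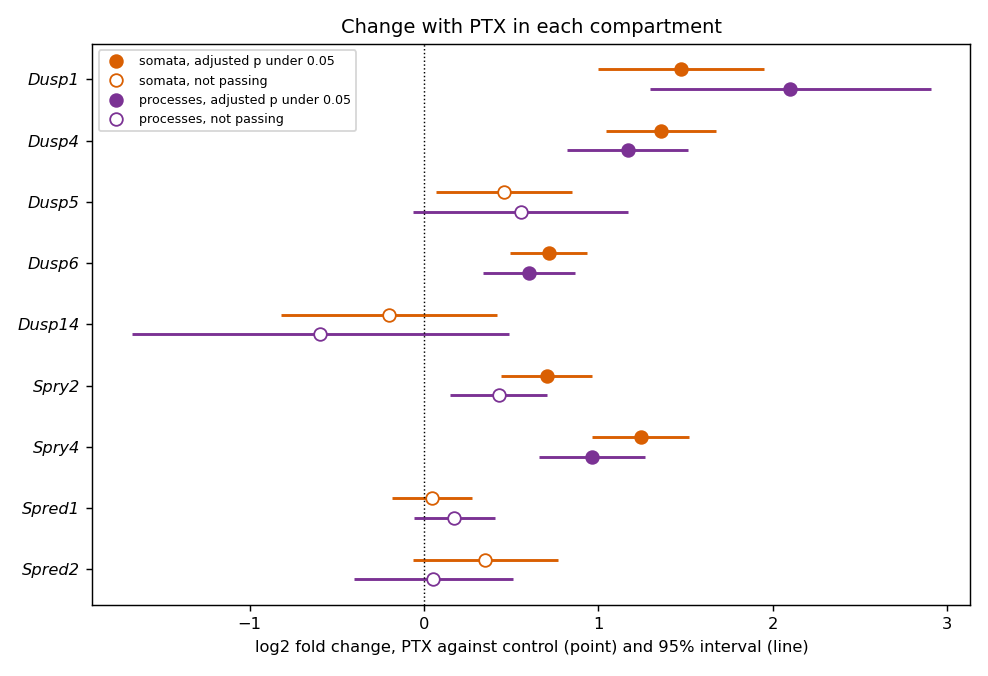
Log2 fold change of PTX against control (horizontal axis) for each gene in somata (orange) and processes (purple), with 95% intervals from the quasi-likelihood fit as lines and filled points for an adjusted p under 0.05. The filled points range from 0.60 for Dusp6 in processes to 2.10 for Dusp1 in processes, and the somatic and process intervals of every gene overlap.

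Markers of dividing cells also moved with PTX. Of the 4 on the list, 1 was higher in somata and 3 in processes, and their summed level went from 83.1 to 91.2 CPM in control somata to 109 to 145.3 CPM in PTX somata, and from 123.8 to 145 CPM in control processes to 240.7 to 244.5 CPM in PTX processes. Of the 8 neuronal markers 2 were called higher and 1 lower with PTX in somata, and 2 were called higher in processes. Their median log2 fold change was nevertheless negative, at -0.24 in somata and -0.23 in processes. Their summed level was 2013 to 2294 CPM in control somata and 1921 to 2187 CPM in PTX somata. In processes the neuronal sum was lower with PTX, at 4135 to 4855 CPM against 5197 to 5518 CPM in control. Of the 8 astrocyte markers 1 was called lower with PTX in somata and none in processes, with median log2 fold changes of -0.19 and -0.11. Their sum was 3679 to 4106 CPM in control somata and 2779 to 3827 CPM in PTX somata. In processes the astrocyte sum was also lower with PTX, at 10831 to 12112 CPM against 12740 to 14296 CPM in control. Of the 8 oligodendrocyte lineage and 4 fibroblast markers none was called. The part of such cells in the rise of the feedback genes was not tested.

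Whether the response differed between the compartments was tested by subtracting the somatic PTX effect from that in processes. None of the 9 genes passed (adjusted p = 1 for each in the quasi-likelihood test), none had an unadjusted p under 0.05, and the likelihood ratio test, DESeq2 and the fit with the replicate block also called 0 of the 9. Over all genes the quasi-likelihood test called 0%, with 4% under an unadjusted p of 0.05. The differences were 0.63 for Dusp1 (95% interval -0.34 to 1.59), -0.19 for Dusp4 (-0.66 to 0.27) and -0.11 for Dusp6 (-0.46 to 0.23) on the log2 scale. For Spry4 the difference was -0.28 (-0.69 to 0.13) and for Spry2 it was -0.27 (-0.65 to 0.10). A response of Spry2 in somata only is therefore not shown.

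In control cultures Dusp1, Dusp4, Dusp5 and Dusp6 were lower in processes than in somata, while Spred1 and Spred2 were higher there and the Sprouty genes showed no called difference. Dusp14 is left out of the counts between compartments, because it passed the filter on low counts only through somata, where it is high. Of the other 8 genes, 6 passed. Of these, 4 were lower in processes, where 21.9% of all tested genes were called lower, and 2 higher, where 25.8% of all were. Among the 4, Dusp1 (20 and 9 reads) and Dusp5 (19 and 21 reads) would not have passed the filter from control processes alone. The count is therefore given as a description. Neuronal markers moved with this comparison, with 6 of 8 lower and 2 higher in control processes (median log2 fold change -0.65) and 5 lower and 2 higher in PTX cultures (-0.53), although their summed level, 2013 to 2294 CPM in control somata, was 5197 to 5518 CPM in control processes. Their part in the lower levels of the phosphatases was not tested. The log2 fold change in processes against somata was -2.32 for Dusp1 (standard error 0.335, adjusted p = 0.000249, quasi-likelihood test), -1.52 for Dusp5 (standard error 0.238, adjusted p = 0.000425) and -0.85 for Dusp6 (standard error 0.114, adjusted p = 0.000144). Dusp4 differed by -0.64 (adjusted p = 0.00574), and without replicate 1 of control somata or replicate 2 of control processes its adjusted p was 0.0531 and 0.0555. Dusp14, with the limit just given, differed by -1.06 (adjusted p = 0.0341, and 0.148 with DESeq2), from 7 and 10 reads in the process libraries, and its call was lost without any 1 of the 4 control libraries or the 2 PTX somata libraries (adjusted p = 0.0528 to 0.163).

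Spred1, with a mean of 51.2 ± 1.98 CPM (SD, n = 2) in control somata and 112 ± 6.27 CPM (SD, n = 2) in control processes, was 2.18-fold higher in processes (log2 1.12, standard error 0.106, adjusted p = 1.21e-05). Spred2, at 11.1 and 12.9 CPM in control somata and 16.3 and 18.5 CPM in control processes, was higher there by a log2 of 0.54 (adjusted p = 0.046), a call that was lost without any 1 of the 4 control libraries or the 2 PTX somata libraries (adjusted p = 0.054 to 0.205) and with upper quartile factors (0.179). Both values are relative to the typical gene: scaled by library size only, which moved the median of all tested genes from -0.05 to -1.86, Spred1 turned to -0.69 and Spred2 to -1.27, still above that median. Astrocyte markers, of which 4 of 8 were higher and 2 lower in control processes, moved with this comparison, and their part in the level of Spred1 was not tested. Spry2, with 32.8 ± 2.29 CPM in somata and 36.5 ± 1.34 CPM in processes, had a log2 fold change of 0.16 (95% interval -0.12 to 0.43), which turned to -0.05 with upper quartile factors and to -1.65 with library size only. Spry4 had one of -0.25 (adjusted p = 0.158, and 0.0178 with upper quartile factors).

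In PTX cultures, 6 of the 8 genes other than Dusp14 passed, with 5 lower in processes and 1 higher, where 24% and 25.7% of all tested genes were called. This comparison and the preceding ones share libraries, so its values are given side by side and not as further evidence. The log2 fold change was -1.70 for Dusp1, -0.84 for Dusp4, -1.43 for Dusp5, -0.97 for Dusp6 and -1.45 for Dusp14, with adjusted p-values up to 0.011; the call of Dusp14 was lost without replicate 1 of PTX processes (0.0755) and with DESeq2 (0.0549). Spry4 was lower in processes by a log2 of -0.53 (adjusted p = 0.00559), Spry2 did not pass (-0.12, adjusted p = 0.431), and Spred1 was higher by 1.25 (adjusted p = 5.57e-06). Spred2, at 0.24 (adjusted p = 0.325), no longer passed, and it passed at 0.54 without replicate 1 of PTX processes (adjusted p = 0.0272). Scaled by library size only, Spred1 (-0.58) and Spred2 (-1.57) turned negative here as well, beside a median of -1.87 for all tested genes.

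**Figure D3:**
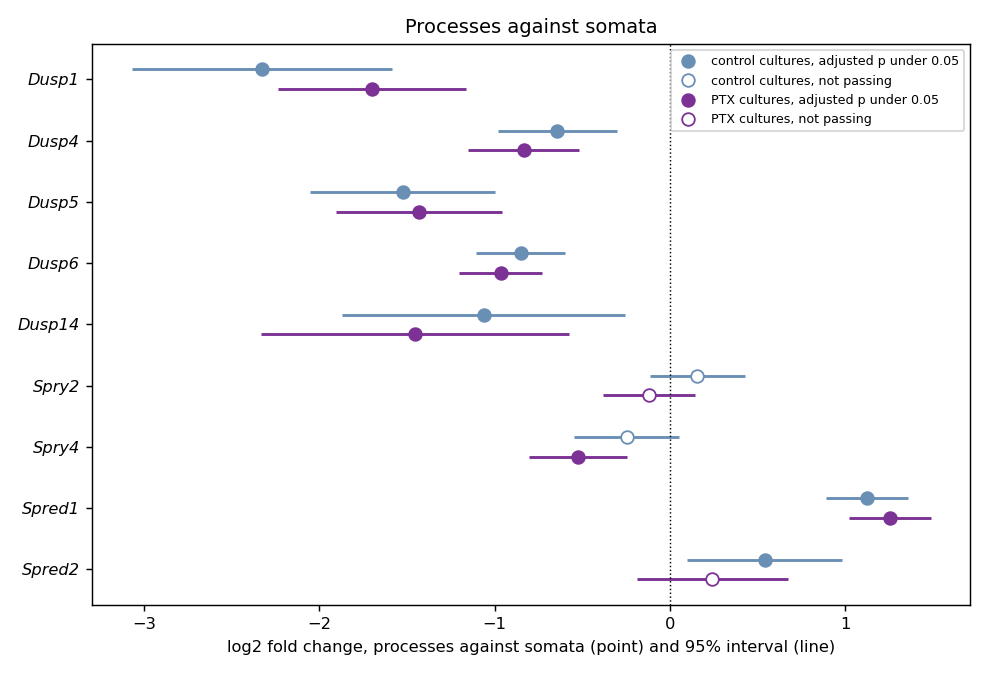
Log2 fold change of processes against somata (horizontal axis) for each gene in control (blue) and PTX cultures (purple), with 95% intervals as lines and filled points for an adjusted p under 0.05. Dusp1, Dusp4, Dusp5 and Dusp6 lie below 0 in both treatments, as does Dusp14, which passed the filter only through somata, and Spred1 lies above 0, at 1.12 and 1.25; with library size as the only scaling the Spred values turned negative.

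Ordered by mean level, Dusp1, Dusp4, Dusp5, Dusp6 and Spry4 had PTX somata highest and control processes lowest. Between these, Dusp4 and Spry4 had PTX processes above control somata after TMM scaling. For Dusp4 the levels were 61.8 ± 5.27 against 43.0 ± 6.43 CPM (SD, n = 2). For Spry4 they were 43.2 ± 4.52 against 26.3 ± 3.48 CPM (SD, n = 2). PTX processes against control somata was not tested, and for both genes this order depends on the scaling. With library size only, Dusp4 in processes against somata of control cultures moved from a log2 of -0.64 to -2.46. Spry4 moved from -0.25 to -2.06. Dusp1, Dusp5 and Dusp6 had control somata above PTX processes, and for Dusp1 these neighbours, at 8.34 ± 2.33 and 7.11 ± 0.318 CPM, were closer than the spread between replicates. The lower pair of Spry4, control somata and control processes (22.2 ± 1.29 CPM), did not pass the test. After TMM scaling, Spry2 was at 53.4 ± 4.83 CPM in PTX somata and 49.1 ± 4.64 CPM in PTX processes. These were within the replicate spread of each other, and both its control groups lay below. Spred1 and Spred2 had both process groups on top with TMM scaling, but not with library size only. Spred1 was at 125.9 ± 8.70 CPM in PTX processes. For Spred2 the 2 process groups overlapped (13.8 and 22.2 CPM with PTX, 18.5 and 16.3 CPM in control). Dusp14 was highest in control somata (2.03 ± 0.171 CPM), followed by PTX somata (1.77 ± 0.0116 CPM), control processes (0.969 ± 0.207 CPM) and PTX processes (0.632 ± 0.244 CPM), and neither step between treatments passed the test.

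Of 97 other genes of the pathway in 8 lists, 92 were tested, and 6 passed for PTX in at least 1 compartment: Lrig1, Rps6ka6, Ksr2, Spred3, Fgfr2 and Dusp26. In each compartment 4 of the 92 were called (4.35%), near the 3.59% of all tested genes in somata and 3.74% in processes. With the replicate block 19 (20.7%) were called in somata and 18 (19.6%) in processes, beside 14% and 11.2% of all tested genes. The list of Ras, Raf, MEK and ERK genes also held scaffolds and the Ras inactivators Nf1 and Rasa1. Of its 20 genes, 0 were called higher and 1 lower in each compartment. Their median log2 fold change was -0.12 in somata and 0.00 in processes. With the replicate block, 2 of the 20 were called higher and 2 lower in each. The gene that fell was Ksr2, a scaffold that holds Raf, MEK and ERK together, from 5.17 ± 0.5 to 2.79 ± 0.184 CPM in somata (log2 fold change -0.89, adjusted p = 0.0376) and in processes from 14.6 ± 3.51 to 7.87 ± 0.248 CPM (-0.89, adjusted p = 0.0382). The somatic call was lost without any 1 of the somata or PTX processes libraries (adjusted p = 0.051 to 0.233), and the call in processes without replicate 1 of control processes or any 1 of the PTX processes and control somata libraries (0.0535 to 0.273).

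Among the remaining relatives of the feedback genes, Spred3, the third Spred gene, was the 1 of 3 further Sprouty and Spred genes that passed, in processes. It went there from 8.21 ± 1.48 to 14.2 ± 1.86 CPM (SD, n = 2; log2 fold change 0.78, adjusted p = 0.0382, lost in all 8 fits with 1 library left out), and in somata its log2 fold change was 0.53 (adjusted p = 0.103, and 0.0123 with the replicate block). None of the 5 other tested MAP kinase phosphatases passed in either compartment; their log2 fold changes lay between -0.07 and 0.78 (somata) and between -0.49 and 1.32 (processes), and 1 and 2 of them were higher with the replicate block. Of 9 atypical phosphatases 1 passed, Dusp26, which rose in somata from 8.90 ± 0.264 to 15.7 ± 1.18 CPM (log2 0.82, adjusted p = 0.0491, lost when any somata library was left out). With the replicate block, 1 of these 9 was called lower in each compartment, and 1 higher in somata.

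Of 11 further ERK target and feedback genes, Lrig1, which restrains receptor tyrosine kinases at the membrane, was the 1 that passed, and it rose in both compartments. With the replicate block, 2 of the 11 were called higher and 1 lower in somata, and 3 higher and 1 lower in processes. It went from 26.7 ± 3.24 to 43.8 ± 8.21 CPM in somata (log2 0.71, adjusted p = 0.0246) and from 19.9 ± 2.35 to 42.5 ± 0.56 CPM in processes (log2 1.10, adjusted p = 0.00597), and its call in processes held with each of the 8 libraries left out. In somata it was lost without either control library or replicate 2 of PTX (adjusted p = 0.089 to 0.192). Of the 8 kinases downstream of ERK, Rps6ka6, a member of the RSK family, rose in somata from 6.36 ± 1.29 to 12.2 ± 1.51 CPM (log2 0.94, adjusted p = 0.0325, and 0.0608 to 0.287 without any 1 of the somata libraries). Of 23 receptor tyrosine kinases and adaptors, the fibroblast growth factor receptor gene Fgfr2 rose in processes from 36.7 ± 0.519 to 56.4 ± 7.6 CPM (log2 0.62, adjusted p = 0.0476), a call that was lost without any 1 of the process or control somata libraries (adjusted p = 0.0703 to 0.23). With the replicate block, 1 of the 23 was called higher and 3 lower in somata, and 2 higher in processes. None of the 13 tested genes of the JNK and p38 cascades was called without the block, and with it 2 were higher and 1 lower in somata and 3 higher and 1 lower in processes. The interaction called 0 genes of these lists, also with the replicate block.

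**Figure D4:**
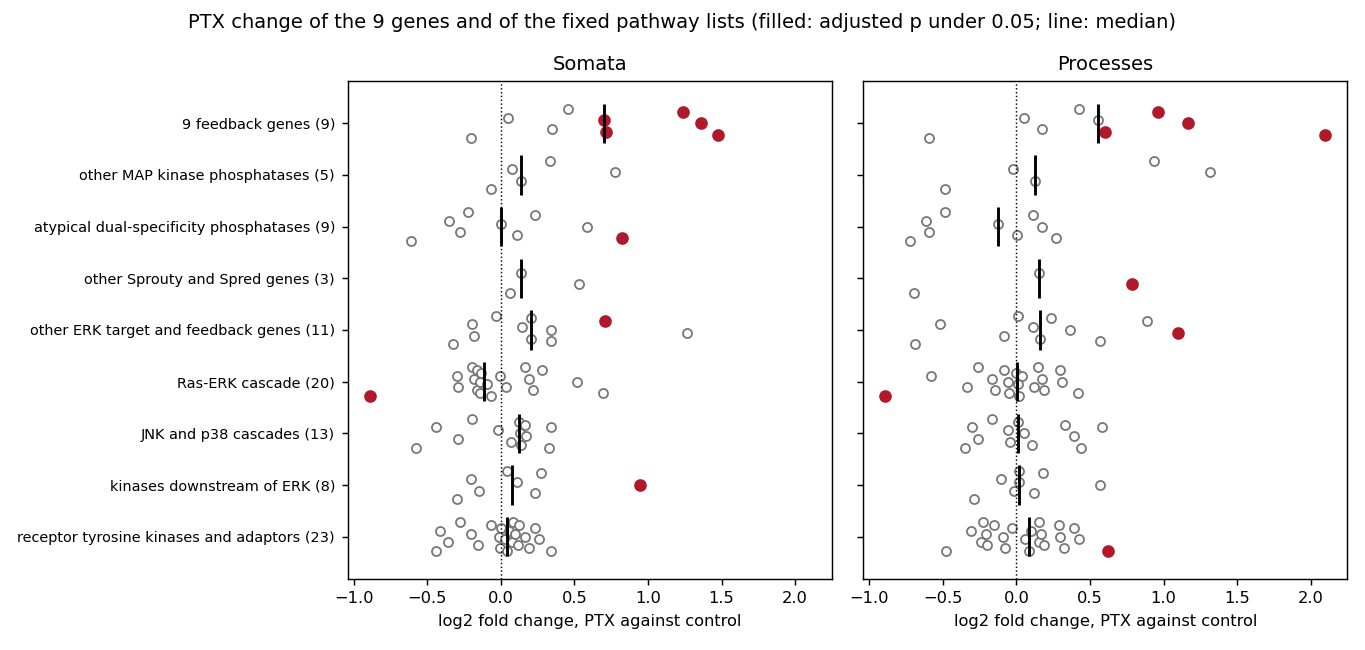
Log2 fold change of PTX against control (horizontal axis) in somata and processes for the 9 feedback genes and the tested genes of 8 pathway lists (number of genes in brackets), with filled points for an adjusted p under 0.05 and a vertical line at each median. The median of the 9 feedback genes is 0.70 in somata and 0.55 in processes, and the medians of the other lists lie between -0.12 and 0.21.

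For 8 of the 9 genes, the gene with the most similar log2 CPM across the 8 libraries is given, from among the 10200 genes whose mean level reached 5 CPM. It was Fos for Dusp1 (Pearson's r = 0.99), Acan for Dusp4 (r = 0.996), Tial1 for Dusp5 (r = 0.995) and Acat2 for Dusp6 (r = 0.997). For the Sprouty and Spred genes it was Gdi2 for Spry2 (r = 0.968), Tll1 for Spry4 (r = 0.983), Tmsb4x for Spred1 (r = 0.999) and Ppip5k1 for Spred2 (r = 0.987). The 8 libraries share the difference between compartments, which alone gives high values among so many genes, so these are descriptions only.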

How the data were processed

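Reads of 8 ribosome-depleted libraries were trimmed with Trimmomatic and counted on gene symbols by the authors with featureCounts and an Ensembl annotation. For the alignment to Rnor_6.0, the methods name Subread subjunc and the submitters' processing notes name STAR. The deposited values are whole-number counts without normalization. The library kit keeps strand, but the strand setting of the counting is not given in the sources used here, so reads of overlapping genes are of uncertain origin. In RefSeq (GRCr8) Dusp5 overlaps 1 lncRNA, and Dusp14 and Spred1 overlap 1 pseudogene each. The authors' tables of their PTX comparisons (log2 fold changes, p-values) were not used.

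The 14309 genes past the filter were fitted in all 8 libraries with edgeR 4.0.16 in R 4.3.3 (TMM factors, glmQLFit, glmQLFTest), with Benjamini-Hochberg adjustment over all genes within a contrast and 0.05 as the threshold. Log2 CPM had a prior count of 2. Alternatives used the likelihood ratio test, DESeq2 1.42.0, other scalings, filters and samples, and a replicate block. The labels' replicate numbers were taken to pair the libraries, since the difference between replicates 2 and 1 correlated across genes with r between 0.274 and 0.54 for all 6 pairs of conditions. The genes, lists and tests were chosen with earlier results of these data known. Named are the 9 genes, the pathway genes called for PTX or the interaction, and the gene most similar to each of the 9, which for Dusp14 is not reported here. Counts of replicates differed by more than counting noise.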

Additional observations from a re-analysis of the deposited data

How the results depend on the processing

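The number of the 9 genes called for PTX in somata (5) ranged from 2 to 5 with 1 library left out, and was 2 without replicate 2 of control somata. In processes (4) it ranged from 2 to 4, and was 2 without any 1 of the 4 process libraries, where Dusp1 and Dusp6 were lost. Such fits compare 2 libraries with 1, which is assumed to vary like the other groups. For processes against somata, the number (7, Dusp14 included) ranged from 4 to 7 in control cultures, and was 4 without replicate 1 of control somata or replicate 2 of control processes, and stayed at 7 in PTX cultures. With a log2 fold change beyond 1 required it was 4 in either, Dusp14 included. With at least 10 reads in every library, which removes Dusp1 and Dusp14 and where Spred2 did not pass, it was 4 in control cultures. Dusp14 passed the filter on low counts only through somata, so the counts that include it are descriptions only. In the fit of all 8 libraries, 47.7% of all tested genes were called for processes against somata in control cultures and 49.8% in PTX cultures. The interaction stayed at 0 of the 9.

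Signs that turned belong to values near 0 or to the scaling. The interaction of Dusp5 (0.10) was -0.01 without replicate 1 of control processes, -0.19 without replicate 2 of PTX processes and -0.03 without replicate 1 of control somata, with 0.32 as the highest value. Spred1 in somata (0.05) ranged from -0.0037 without replicate 2 of control somata to 0.083. Spred2 was -0.03 and -0.34 for PTX in processes without replicate 2 of control or of PTX processes, and -0.15 for processes against somata of PTX cultures without the latter, with highest values of 0.35 and 0.54 without replicate 1 of PTX processes. With library size only, processes against somata of control cultures was -0.69 for Spred1, -1.27 for Spred2 and -1.65 for Spry2 (-0.047 with upper quartile factors), and in PTX cultures -0.58 for Spred1 and -1.57 for Spred2. The PTX calls of Dusp1, Dusp4 and Spry4 held under all alternatives that kept all libraries compared, except that Dusp1 was not tested with at least 10 reads in every library. DESeq2 gave no adjusted p for Dusp14 in processes.

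Counts over all genes moved more. For PTX in somata (513) they were 972 with the likelihood ratio test, 1141 without a filter, 2002 with the replicate block and 117 to 568 with 1 library left out. In processes (535) they were 949, 1129, 1601 and 97 to 478, and 298 with only the 4 libraries compared. The interaction (0) gave 4 genes with DESeq2, 4 with the likelihood ratio test, 10 without a filter and 15 with the replicate block. For processes against somata, library size only gave 13462 genes in control cultures (6823) and 13499 in PTX cultures (7121). The replicate block changed no call of the 9 genes other than Dusp5 in somata and Spry2 in processes.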
